A study of Danio rerio with 15 samples.

Results

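The comparison described here was that of esco2 morphants with control embryos at 24 hpf (hours post-fertilization), across all genes that the array measures. The members were the 8 arrays that GEO's labels give to that age, 4 of morphants and 4 of controls, of 15 arrays in the series; the other arrays, of 48 hpf, entered the fit only for its estimate of spread. Each array held RNA from a separate pool of 50 dechorionated whole zebrafish embryos, labelled as biological replicates 1 to 4 of each group. Both groups were of wild type genotype. The morphants had received the esco2_ATG morpholino, an antisense oligonucleotide that covers the start codon and blocks translation, in injection buffer, and the controls had received the buffer alone. The labels give the 1-cell stage as the time of injection.

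The design limits what the groups can show as a model. No unrelated morpholino was injected, so the presence of an oligonucleotide and the depletion of Esco2 cannot be told apart. A translation blocker need not lower its target's transcript, so that the array does not check the knockdown. The pools hide differences between embryos, and in RNA of whole embryos fewer cells of a type and less RNA per cell cannot be told apart.

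Esco2 is an acetyltransferase that acts on the Smc3 subunit of cohesin, the protein ring that holds sister chromatids together, and it stabilizes cohesion while DNA is copied. When cohesion fails, chromatids separate too early, mitosis is delayed and chromosomes are lost or broken. Broken DNA stabilizes p53, a transcription factor whose targets halt the cell cycle, feed back on p53 itself or start apoptosis. At 24 hpf the embryo still grows by division, above all in the neural tube and the eye, where dividing progenitors give rise to neurons and where Delta ligands and Notch receptors decide which cells remain progenitors.

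The transcript of esco2 itself, on chromosome 20, read 9.19, 9.10, 9.19 and 9.16 on the log2 scale in the 4 control pools and 8.97, 8.71, 8.87 and 8.83 in the morphant pools. Every morphant array lay below every control array. The difference was −0.31 (SE 0.089, adjusted p = 0.0345 with limma), a fall of 1.24-fold, and it lay close to the threshold. When any of the 4 controls, or morphant 2, 3 or 4, was left out, the adjusted p lay between 0.0549 and 0.119, and it was 0.0594 after centring on the ribosomal protein genes. Without morphant 1 the transcript stayed past the threshold.

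Arrays of the same group correlated with a mean r of 0.997 each, and arrays of different groups with mean values between 0.991 and 0.994. The median SD between the 4 pools was 0.097 in controls and 0.099 in morphants. The 3′ minus 5′ difference of the gapdh control probe sets, which grows as RNA degrades, was 1.13 to 1.28 in controls and 0.96 to 1.28 in morphants, and that of the muscle actin acta1 was 2.34 to 2.49 in controls and 2.27 to 2.69 in morphants, with at least 1 morphant array above every control. Whole embryo markers were present, with the muscle actin actc1b, the keratin krt4, the globin hbae3 and the yolk and liver lipoprotein apoa1a at percentiles 99.2 to 100.0 of signal. The lens crystallin cryaa (percentile 29.6) and the vitellogenin vtg2 (percentile 26.6) were at low signal, with adjusted p of 0.895 and 0.764. A p-value here sets a difference against the spread between pools, as estimated over all 15 arrays of both ages.

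Under the thresholds of 5% for the false discovery rate and 2 for the fold, 75 of 15502 probe sets changed (0.484%). Of these, 59 were raised (0.381%) and 16 were lowered (0.103%). Without the demand on fold, 1514 probe sets passed (9.77%), 687 raised (4.43%) and 827 lowered (5.33%). Rises reached further than falls. Among raised probe sets 19 changed at least 4-fold, and among lowered ones 0 did, although at an unadjusted p of at most 0.05 limma counted 1840 probe sets lower and 1674 higher. Most passing differences were small, with a median of 1.3-fold among the raised and 1.31-fold among the lowered probe sets.

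With 1 probe set for each gene, 45 of 8793 genes changed at least 2-fold (0.512%), 39 upward (0.444%) and 6 downward (0.0682%). At the false discovery rate alone, 507 genes passed upward (5.77%) and 545 downward (6.20%). In the rest of the text a gene is said to have risen or fallen when its adjusted p was at most 0.05, whatever its fold, and counts of list members are to be read against these last shares and against the median difference over all genes, which was 0.01. Counts at an unadjusted p of at most 0.05 are to be read against 1172 genes higher and 1153 lower of the 8793. The lists were drawn from textbook roles, and the members counted are those that the array measures. The number of probe sets past the false discovery rate was 2583 when the 8 arrays were fitted alone and 983 without morphant 2, whereas the number changed at least 2-fold was 75 with the 8 arrays alone and lay between 73 and 84 when any of the 8 arrays was left out. It was 2404 without control 3 of 48 hpf, with 75 changed. Without morphant 4, 25 probe sets were lowered at least 2-fold.

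**Figure D1:**
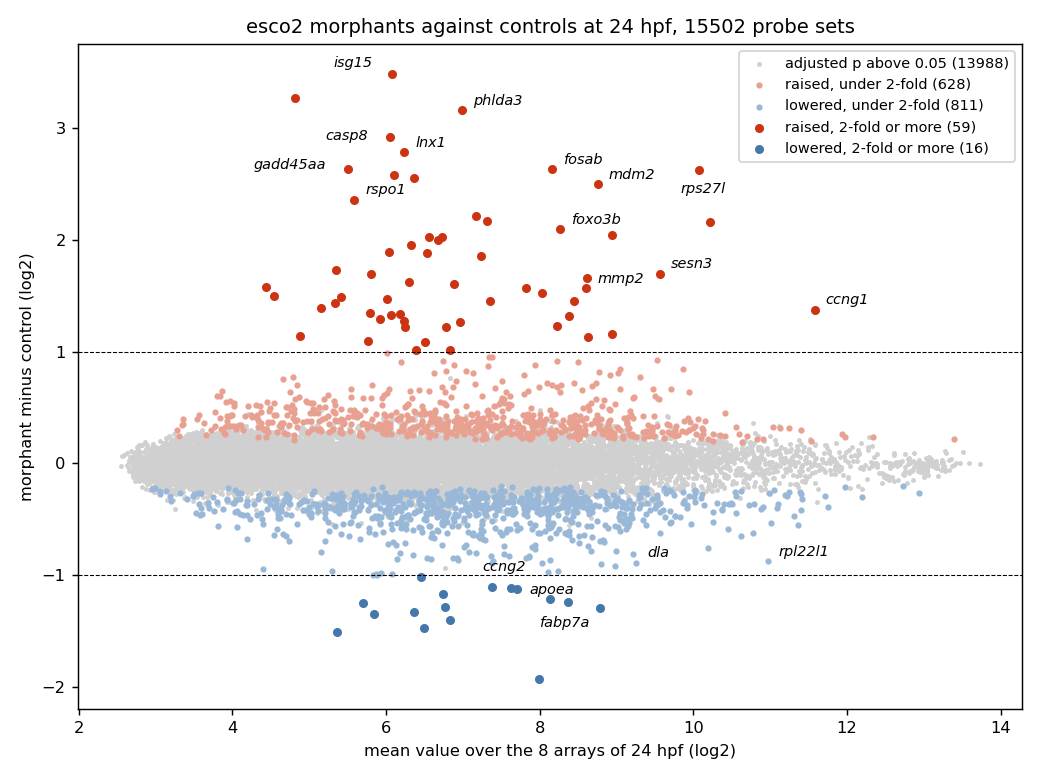
Difference between esco2 morphants and controls at 24 hpf (log2, morphant minus control, vertical axis) against the mean log2 signal over the 8 arrays (horizontal axis) for 15502 probe sets, with those past the false discovery rate in color and the larger points past a fold of 2 (dashed lines at 1 and −1). The 19 probe sets raised at least 4-fold have no counterpart among the falls.

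Genes that p53 is known to control were among the largest rises. Of 32 measured genes on the p53 list 17 rose and 3 fell, with a median difference of 0.39, and 15 of the rises and all 3 falls passed in every alternative processing. Deviation from the control mean, as the median over the list, was 0.29, 0.42, 0.49 and 0.37 in the 4 morphant pools and between −0.03 and 0.02 in the controls. The list was drawn up with a p53 response of these embryos already known, and its count is not independent evidence of one.

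The gene phlda3, which restrains the kinase Akt, read 5.30, 5.60, 5.43 and 5.29 in controls and 8.42, 8.77, 8.55 and 8.53 in morphants. That is an 8.93-fold rise (log2 difference 3.16, SE 0.090, adjusted p = 1.85e-13). The ubiquitin-like modifier isg15, which is also induced by interferon, went from 4.17, 4.47, 4.34 and 4.34 to 7.89, 8.11, 7.70 and 7.56, or 11.2-fold. These were the largest rises of named genes, and the distance between the groups exceeded the range within either group several times over.

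Among the genes that feed back on p53, the rise and the falls stood side by side. mdm2, the ubiquitin ligase that marks p53 for destruction, read 7.48, 7.48, 7.52 and 7.55 in controls and 9.95, 9.80, 10.16 and 10.11 in morphants, 5.65-fold higher (adjusted p = 7.45e-13). Its partner mdm4 read 7.43, 7.48, 7.41 and 7.56 in controls and 6.81, 6.48, 6.71 and 6.72 in morphants, a fall of 1.73-fold (adjusted p = 5.93e-05). The phosphatase ppm1da, which removes damage-induced phosphates from p53, fell by 0.45 (SE 0.079), while its paralog ppm1db stood at −0.17 without passing the test. The cyclin G genes also split. ccng1 rose by 1.38 from a mean of 10.90, and ccng2 fell by 1.11, from 8.33, 8.27, 8.06 and 8.06 to 6.82, 7.0, 7.48 and 6.98. The second probe set of ccng2 gave −0.84.

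Genes of growth arrest and of stress followed. Of 18 measured Mdm, sestrin, Gadd45 and related stress regulators, several of which are also on the p53 list, 9 rose and 2 fell, with a median of 0.33, and 6 of the rises and both falls passed in every alternative. gadd45aa, a stress protein that binds PCNA and cyclin-dependent kinase, read 4.20, 4.06, 4.33 and 4.15 in controls and 6.83, 6.95, 6.70 and 6.78 in morphants (6.20-fold). rps27l, which codes for a ribosomal-like protein and is a p53 target in human cells, went from 8.93, 8.58, 8.84 and 8.68 to 11.39, 11.50, 11.37 and 11.29 (6.18-fold). The related genes rps27.1 and rps27.2 differed by 0.01 and 0.03 and did not pass. The transcription factor foxo3b rose 4.28-fold on its brighter probe set, with a difference of 2.1, and by 0.50 on the other. sesn3, a sestrin that dampens TORC1, rose 3.25-fold, and plk3 and tp53inp1 rose by 0.79 and 0.92. Of the uncalled members plk2b stood at 0.17, tigarb at 0.30, ddb2 at 0.11, xpc at −0.16, perp at 0.12 and fas at −0.02.

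Apoptosis genes outside the p53 targets changed little. Of 44 measured genes of the apoptosis list 6 rose and 1 fell, with a median of 0.06. Of the risen genes casp8, bbc3, baxa and pmaip1 are also on the p53 list. casp8, an initiator caspase, read 4.50, 4.49, 4.55 and 4.83 in controls and 7.55, 7.15, 7.79 and 7.58 in morphants (7.60-fold). The BH3-only gene bbc3, also called puma, read 5.34, 5.89, 5.45 and 5.73 against 6.73, 6.73, 7.06 and 6.98 (2.41-fold). baxa, whose protein opens the mitochondrial outer membrane, rose from a narrow range of 8.28 to 8.51 to one of 9.46 to 9.61 (2.24-fold). The BH3-only gene pmaip1, also called noxa, rose by 0.47, and the inflammatory caspase gene caspb by 0.53. pdcd4b, a translation inhibitor, fell by 0.44.

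**Figure D2:**
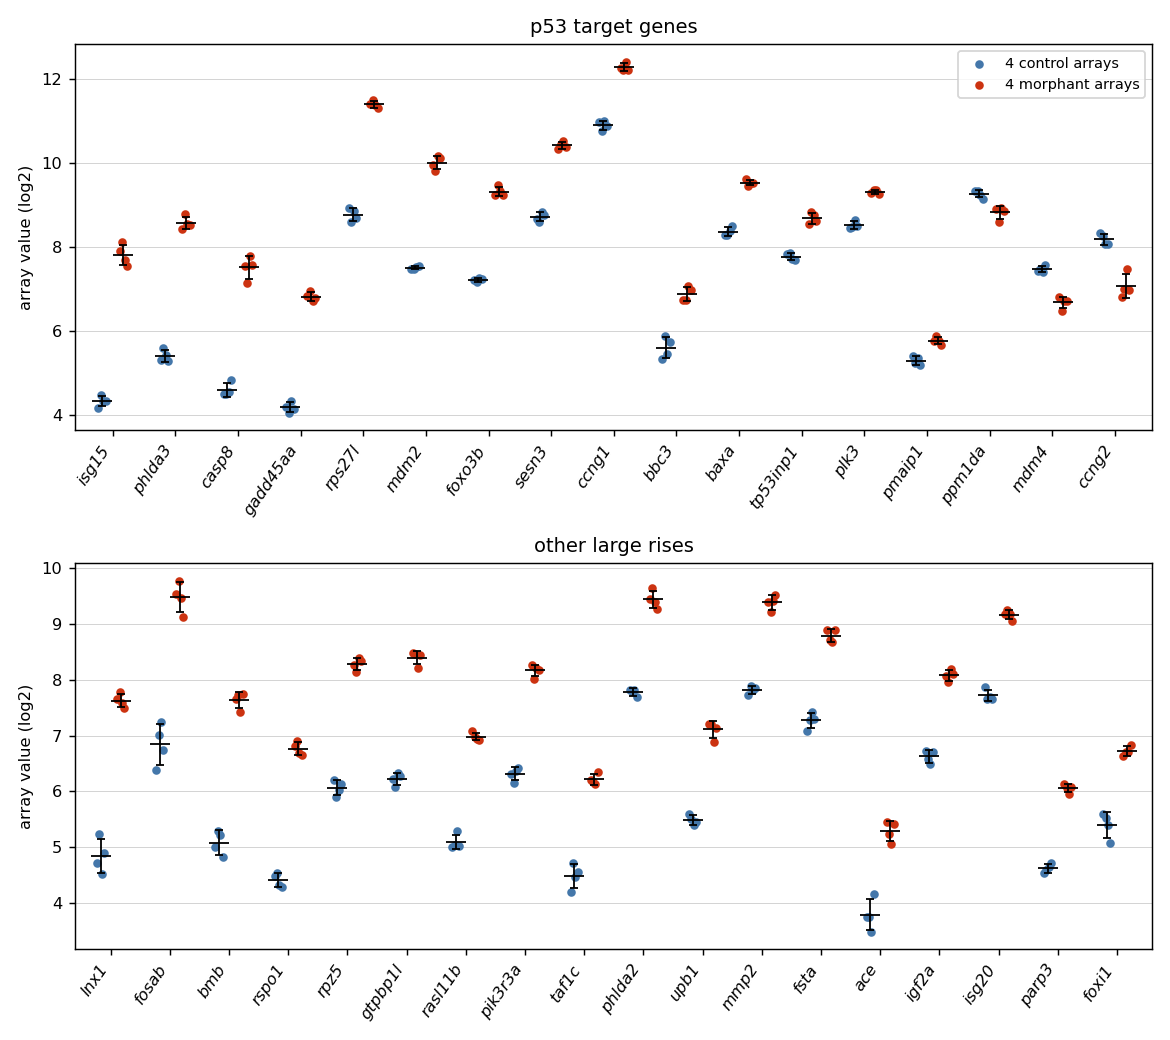
Log2 signal of each control pool and each esco2 morphant pool at 24 hpf for p53 target genes and for other genes with large rises, 1 point per array, with black bars for the mean ± SD (n = 4). In phlda3, isg15, mdm2 and rps27l the morphant points lie more than 2 log2 units above the control points, while mdm4 and ccng2 lie below them.

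Other large rises belonged to genes with no place on the p53 list. Some code for secreted or cell surface proteins. rspo1, an R-spondin that amplifies Wnt signals, read 4.49, 4.54, 4.32 and 4.28 in controls and 6.82, 6.91, 6.69 and 6.65 in morphants (5.13-fold). fsta, a follistatin that binds activin and Bmp ligands, rose 2.87-fold, the matrix metalloproteinase mmp2 2.97-fold and the insulin-like growth factor igf2a 2.74-fold. The second zebrafish igf2 gene, igf2b, rose as well, by 0.88 from 6.28, 6.35, 6.50 and 6.63 to 7.36, 7.33, 7.31 and 7.28. ace, angiotensin-converting enzyme, rose 2.83-fold from low signal.

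Intracellular regulators made up another part. lnx1, a ubiquitin ligase named for its binding of the Notch regulator Numb, read 4.71, 5.24, 4.52 and 4.90 in controls and 7.65, 7.78, 7.58 and 7.50 in morphants (6.90-fold). bmb, the brambleberry gene of nuclear membrane fusion, rose 5.89-fold, and the GTP-binding protein gene gtpbp1l rose 4.51-fold. pik3r3a, a regulatory subunit of phosphoinositide 3-kinase, rose 3.61-fold and phlda2, a relative of phlda3, 3.16-fold. parp3, a poly-ADP-ribose polymerase of DNA break repair, read 4.53, 4.59, 4.64 and 4.71 in controls and 6.13, 6.07, 5.96 and 6.07 in morphants. It was the only one of 48 measured DNA damage and repair genes to rise, while 5 fell and the list median was −0.12. The falls numbered between 2 and 9 with an array left out, 2 without control 2, morphant 2 or morphant 3 and 9 without control 3 of 48 hpf. taf1c, a subunit of the RNA polymerase I selectivity factor, rose 3.32-fold.

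Immediate early genes, which cells switch on within minutes of a growth or stress signal and which code for the AP-1 factors Fos and Jun among others, rose in part. Of 53 measured members 16 rose and 0 fell, 11 of the rises passed in every alternative, and the median was 0.13. The rises include plk3, named above, and atf3 and btg2, which are also on the list of Mdm, sestrin and related stress regulators. At an unadjusted p of at most 0.05, 23 stood higher and 3 lower in limma. fosab, which varied widely between control pools, read 6.39, 7.01, 7.24 and 6.74 in controls and 9.54, 9.78, 9.47 and 9.13 in morphants (6.21-fold, adjusted p = 1.82e-05). All 4 of its probe sets rose, by 2.64, 2.58, 2.00 and 1.88. junba read 5.92, 6.35, 6.67 and 6.36 in controls and 7.78, 8.03, 7.44 and 7.10 in morphants (2.41-fold), and junbb rose by 0.87. socs3a, a feedback inhibitor of cytokine signaling, rose 2.13-fold, and its morphant values of 6.85, 6.51, 6.15 and 5.73 came near the control values of 4.78, 5.54, 5.55 and 5.0 at their lower end. The stress factor atf3 rose by 0.99, ier2a by 0.95 and the growth factor hbegfa by 0.81. mycb and myca, the zebrafish homologs of MYC, rose by 0.54 and 0.39.

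Genes of DNA replication fell together and by small amounts. Of 69 measured replication genes and E2F targets (genes that E2F factors switch on at the start of S phase) 0 rose and 32 fell, 24 of them in every alternative, and 60 lay below 0. At an unadjusted p of at most 0.05, 44 stood lower and 2 higher. The list median was −0.28. It was −0.24, −0.29, −0.35 and −0.28 in the single morphant pools as a deviation from the control mean, against −0.01 to 0.02 in the single control pools. When the 8 arrays were fitted alone, 42 of the 69 fell. No member reached a fold of 2.

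The fall ran through the machine that opens DNA. Of the 6 subunits of the MCM helicase, which unwinds DNA at the fork, 5 fell. mcm2 read 11.08, 11.22, 11.03 and 11.05 in controls and 10.53, 10.42, 10.45 and 10.48 in morphants, and mcm3 read 9.32, 9.33, 9.26 and 9.30 against 8.85, 8.66, 8.66 and 8.76. mcm5, mcm4 and mcm7 fell by 0.54, 0.53 and 0.41. mcm6, measured at low signal, stood at −0.24 with overlapping groups. All 4 GINS subunits, which join the helicase, fell, with a median of −0.38, gins1 and gins2 in every alternative, and so did cdc45 (−0.50), the third partner. The loading factor cdc6 fell by 0.59.

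In the other replication complexes every measured member but orc3 (0.19) lay below 0, and fewer than all passed the test. Of the DNA polymerase alpha and primase genes 1 of 3 fell, prim1 (−0.54), of DNA polymerase delta 2 of 3, and of the single-strand binding protein RPA 1 of 3. Of the 4 clamp loader genes (replication factor C) 0 passed, with values from −0.23 to −0.06, and the clamp pcna itself stood at −0.10. Of the 6 origin recognition genes 1 fell. Among other falls were dut (−0.65), which keeps uracil out of DNA, slbp (−0.53), which binds histone messenger RNA, and dnmt1 (−0.53), which copies DNA methylation.

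hells and cdca7a, whose products form a nucleosome remodeler, fell most on the list. hells read 7.84, 7.66, 7.75 and 7.86 in controls and 7.01, 6.88, 6.90 and 7.03 in morphants (−0.82, SE 0.088), and cdca7a read 10.60, 10.61, 10.53 and 10.53 against 9.94, 9.68, 9.83 and 9.78 (−0.76, SE 0.088). Of 40 histone and chromatin genes 11 fell and 0 rose (18 and 2 at an unadjusted p of at most 0.05), with a median of −0.17. The lists overlap, since hells is counted in both and has the lowest value of each. Without control 1, control 3 or morphant 2 the falls numbered 7. Among them the heterochromatin protein cbx1b fell by 0.43 and the chromatin protein hmgb1b by 0.40.

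Genes of mitosis also fell more often than they rose. Of 65 measured genes 23 fell and 2 rose, with a median of −0.23, and 12 of the falls passed in every alternative. Without control 4 or morphant 2 the falls numbered 15. cenpk, a kinetochore protein, read 7.09, 6.94, 6.93 and 6.94 in controls and 6.46, 6.27, 6.40 and 6.34 in morphants (−0.60). fbxo5, also called emi1, which restrains the anaphase-promoting complex, fell by 0.53, and the spindle proteins nusap1, kifc1 and kif11 fell by 0.43, 0.42 and 0.35. The cyclin ccnb3 fell by 0.36 and the kinase plk1 by 0.28.

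The genes that rose against this direction were ect2 and ncapd3. ect2, the exchange factor that activates RhoA for cytokinesis, read 6.81, 6.96, 6.71 and 7.0 in controls and 7.75, 7.80, 7.91 and 7.81 in morphants (1.93-fold). ncapd3, a condensin II subunit, read 8.06, 8.07, 7.99 and 8.06 in controls and 9.02, 8.91, 8.88 and 9.01 in morphants (1.88-fold, adjusted p = 3.85e-07). Of the other 5 condensin genes measured 3 fell.

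Of 18 genes for cohesin and its regulators 5 fell and 0 rose (11 and 0 at an unadjusted p of at most 0.05), with a median of −0.22, and 9 fell when the 8 arrays were fitted alone. The 5 falls include that of esco2 itself, the target of the morpholino. Without control 2, control 3, morphant 2 or morphant 3 the falls numbered 3, and without control 3 of 48 hpf they numbered 9. Among 9 core and cohesin-bound subunits all lay below 0 but only pds5b, which binds the ring, passed, with 8.84, 8.83, 8.83 and 8.86 in controls and 8.50, 8.47, 8.42 and 8.50 in morphants (−0.37, SE 0.072). smc3 stood at −0.23 (adjusted p = 0.0657), smc1al at −0.33 (adjusted p = 0.163) and rad21a at −0.16 (adjusted p = 0.216). The deacetylase hdac8, which removes from Smc3 the mark that Esco2 sets, read 8.08, 8.05, 8.05 and 7.94 in controls and 7.78, 7.45, 7.42 and 7.69 in morphants and fell by 0.44.

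**Figure D3:**
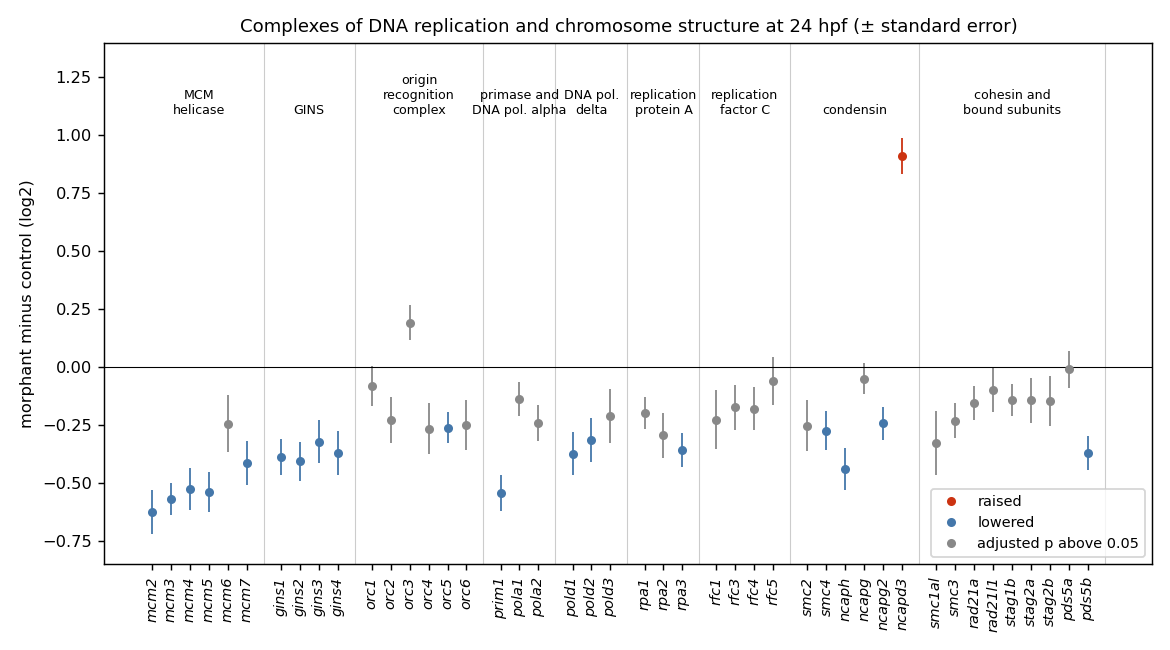
Log2 difference (morphant minus control at 24 hpf) of each measured member of named complexes, 1 point per gene with its standard error, red for raised, blue for lowered and grey for an adjusted p above 0.05. Of the MCM helicase 5 of 6 members and of GINS 4 of 4 fell, while ncapd3 stands at 0.91 above the other condensin genes.

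Genes of the Notch pathway and of neural progenitors were among the larger falls. Of 45 measured proneural and Notch genes 21 fell and 2 rose, with a median of −0.29, and 19 of the falls passed in every alternative. The median deviation in the single morphant pools was −0.35, −0.39, −0.23 and −0.30.

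Of 7 Delta and Jagged ligands 4 fell and 1 rose. dla, a Delta ligand, read 9.66, 9.86, 9.61 and 9.67 in controls and 8.73, 8.76, 8.82 and 8.93 in morphants (−0.89, SE 0.075, adjusted p = 3.06e-07). dlb and dlc fell by 0.50 and 0.54 and the Jagged ligand jag1a by 0.61. The ligand that rose was jag1b, with 6.77, 6.83, 6.92 and 6.97 in controls and 7.27, 7.22, 7.02 and 7.41 in morphants (0.36, SE 0.090, adjusted p = 0.0172), and it did not pass without control 1, control 2 or morphant 4. dld, the fourth Delta gene, was at 10.23, 10.15, 10.18 and 10.14 in controls and 10.24, 10.18, 10.18 and 10.14 in morphants, a difference of 0.01 (SE 0.062). Of the Notch receptors notch1a fell by 0.55 and notch3 stood at −0.29 with an adjusted p of 0.217.

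Several targets and proneural factors lay lower, while her6 (0.18), hey1 (0.04), neurog3 (0.05) and neurod2 (0.02) were not called. The Hes-related repressor her4.2, a target that Notch switches on, read 7.03, 6.96, 7.08 and 7.06 in controls and 5.65, 5.44, 5.64 and 6.09 in morphants (−1.33, a 2.51-fold fall), and its second probe set gave −1.25. her4.5 fell by 1.29 on its brighter probe set and stood at −0.14 (adjusted p = 0.42) on the other. The her4 genes are near-identical copies, so a probe set may read several of them. her2, her15.2 and hes6 fell by 0.71, 0.64 and 0.65, whereas her9, another Hes-related repressor, rose by 0.37 from 9.76, 9.78, 9.83 and 9.69 to 10.11, 10.12, 10.15 and 10.16. Among proneural factors ascl1b fell by 0.84, ascl1a by 0.61 and neurog1 by 0.44. olig2, the factor of motor neuron and oligodendrocyte progenitors, read 7.05, 6.81, 6.96 and 6.86 in controls and 6.18, 6.21, 6.27 and 6.37 in morphants.

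Progenitor genes showed the same direction. Of 83 measured genes for neural progenitors and brain patterning 29 fell and 4 rose, with a median of −0.17, and 19 of the falls and 1 of the rises passed in every alternative. The radial glial lipid-binding protein fabp7a read 9.11, 9.0, 8.86 and 8.96 in controls and 7.97, 7.70, 7.47 and 7.85 in morphants (−1.24, a 2.36-fold fall, adjusted p = 2.43e-07). The Pou3f factors, which act in neural progenitors, fell in 4 of 4 members, from −0.87 (pou3f3b) to −0.40 (pou3f3a). Of 11 SoxB and SoxC factors 8 fell, among them sox21b (−0.85), sox19b (−0.80), sox19a (−0.53), sox3 (−0.44) and sox2 (−0.37). The glial filament gene gfap fell by 0.50.

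Factors that mark regions of the neural tube were among the falls. gbx1, a homeodomain factor, read 6.54, 6.68, 6.48 and 6.65 in controls and 5.85, 5.68, 5.80 and 5.81 in morphants. nr2e1, also called tailless, and dbx1a, a factor of interneuron progenitors, each fell by 0.73, and the retinal field factor rx2 by 0.53. irx7, an Iroquois factor, rose by 0.35. Of 54 measured Hox genes and their cofactors 9 fell and 0 rose (18 and 1 at an unadjusted p of at most 0.05), with a median of −0.11 and 4 falls that passed in every alternative, hoxa2b (−0.51), hoxa9a (−0.41), meis2b (−0.41) and meis3 (−0.39). The count of 9 was 5 without control 1, morphant 1 or morphant 4 and 14 without control 3 of 48 hpf. The retinal list had 4 falls and 0 rises in 36 (8 and 2 at an unadjusted p of at most 0.05; 7 falls without control 3 of 48 hpf), with vsx1 at −0.48.

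Few genes on the list of differentiated neurons passed the test. Of 49 measured 2 fell and 0 rose (6 and 3 at an unadjusted p of at most 0.05), with a median of −0.05. Without control 3 of 48 hpf 5 fell, and with the 8 arrays of the comparison fitted alone 6 fell and 0 rose. The groups did not overlap in 7 of the 49, against 25.2% of all genes. Most of the 49 were at dimmer signal, which limits this count. Over all probe sets, groups did not overlap in 10.8% of the 7758 dimmer ones and in 31.2% of the 7744 brighter ones. The falls were those of the tubulins tubb5 (−0.40) and tuba1b (−0.36). elavl3, an RNA-binding protein of young neurons, read 8.94, 8.85, 8.67 and 9.16 in controls and 8.29, 8.53, 8.64 and 8.21 in morphants. Its groups did not overlap, with SDs of 0.204 in controls and 0.197 in morphants. The difference was −0.48 (SE 0.272) with an adjusted p of 0.321 in limma. That SE rests on the spread over all 15 arrays of both ages. elavl4 stood at −0.14 and the axonal gene gap43 at 0.10. The list does not hold every neuronal gene. neurod4, neurod6b and bhlhe22, counted on the proneural list, fell by 0.65, 0.63 and 1.00, while neurod1 (−0.28) and neurod2 (0.02) were not called. The neuronal membrane protein gpm6aa, which is on neither list, also fell. The difference between the neuronal and the progenitor list was not tested.

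**Figure D4:**
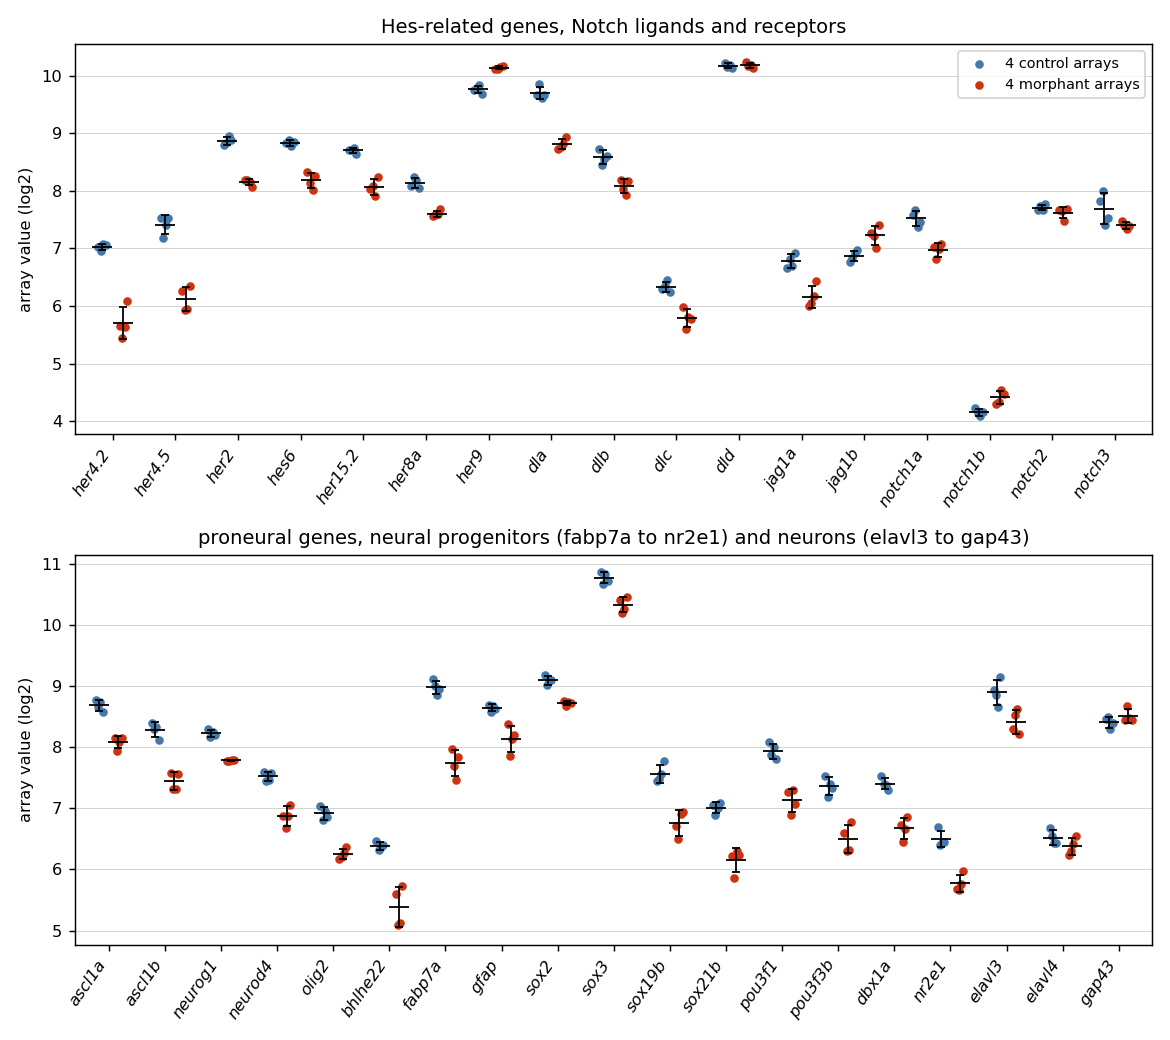
Log2 signal of each control pool and each esco2 morphant pool at 24 hpf for Notch pathway genes and for proneural, progenitor and neuronal genes, 1 point per array, with black bars for the mean ± SD (n = 4). The morphant points of dla, her4.2 and fabp7a all lie below the control points, while those of dld lie on them.

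Most signaling genes were not called, and the calls went both ways. Of 90 measured genes of the Wnt, Fgf, Bmp, Hedgehog and retinoid pathways 10 rose and 8 fell, with a median of 0.04. Over all genes 5.77% rose and 6.20% fell, and whether the list differs from these shares was not tested. Without single arrays of 24 hpf the counts fell to as few as 5 and 5, and with the 8 arrays of 24 hpf alone they were 13 and 12. Besides rspo1, the ligand bmp2b rose by 0.81, the Wnt antagonist dkk1b by 0.59 and the retinoid-binding protein crabp2a by 0.52. sfrp1a, a secreted Wnt antagonist, read 6.58, 6.13, 6.81 and 6.19 in controls and 5.49, 5.24, 5.55 and 5.52 in morphants (−0.98). The Fgf receptors fgfr3 and fgfr2 fell by 0.55 and 0.34, the Wnt receptor fzd9b by 0.54 and cyp26b1, which degrades retinoic acid, by 0.45.

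Genes of the yolk, the liver and the plasma fell in part. Of 56 measured 14 fell and 0 rose (20 and 2 at an unadjusted p of at most 0.05), with a median of −0.07. The count of falls was 9 without morphant 2. Apolipoprotein genes were among the falls. apoea read 8.30, 8.20, 8.21 and 8.33 in controls and spread over 7.20, 6.63, 7.01 and 7.71 in morphants (2.18-fold, SD 0.45 among the morphant pools), and apom fell 1.86-fold with a tighter 8.49, 8.34, 8.25 and 8.34 against 9.36, 9.17, 9.18 and 9.29. apoa4a fell by 0.70, whereas apoa1a stood at −0.07. All 3 fibrinogen chains fell, fgb by 0.74 and fgg by 0.60, while fga (−0.37) did not pass in every alternative. The retinol carrier rbp4 fell by 0.55.

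On the list of heat shock and unfolded protein response genes 8 of 54 fell and 1 rose, with a median of −0.06, and 6 falls passed in every alternative. hsp90b1, a chaperone of the endoplasmic reticulum, read 7.38, 7.37, 7.43 and 7.38 in controls and 6.64, 6.60, 6.67 and 6.65 in morphants (−0.75, adjusted p = 2.83e-07), with SDs of 0.028 and 0.027. dnajc3a fell by 0.58, hspa5, also called BiP, by 0.39, pdia3 by 0.37 and calr3a by 0.35.

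Skin genes were slightly higher. Of 50 measured epidermal genes 9 rose and 1 fell, 5 of the rises in every alternative and 5 in all without control 4, and 44 of the 50 lay above 0 with a median of 0.12. foxi1, a factor of ionocytes and the ear, read 5.60, 5.53, 5.40 and 5.07 in controls and 6.64, 6.71, 6.71 and 6.84 in morphants (2.51-fold). krt1-19d rose by 0.79 and anxa1d by 0.47. krt4, a keratin of the outer skin layer, stood at 0.04.

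Counts in other tissues are to be read against 5.77% of all genes raised and 6.20% lowered. The share lowered was 17.6% in the lens. The share raised was 13.2% in cartilage, bone and fin. In skeletal muscle 8.77% rose and 7.02% fell, and in neural crest 5.56% rose and 5.56% fell. Whether any list differs from the shares over all genes was not tested. Skeletal muscle had 5 rises and 4 falls among 57 genes (2 rises without control 4 and 9 without control 3 of 48 hpf), with pvalb1 (−0.68), tnnt3b (−0.58) and ldb3a (0.48) the largest, and acta1a at 0.05. Neural crest had 2 rises and 2 falls in 36, with sox10 at −0.01 and with 0 or 1 rise when any of the 8 arrays was left out. Pigment cells had 1 fall in 14, and cartilage, bone and fin 5 rises and 1 fall in 38, led by mmp2, with 3 rises when any of the 8 arrays was left out. Heart had 1 rise in 22, red blood cells 1 fall in 27 (slc4a1a, −0.63) and endothelium 1 rise and 2 falls in 27. In the lens 3 of 17 genes fell, cryba4 (−0.85), crybb1 (−0.83) and crygmxl2 (−0.69). All uncalled lens genes but cryl1 (percentile 76.5) were at percentile 43.4 of signal or below. In crybb1 the groups were 8.14, 8.18, 7.94 and 7.79 against 7.43, 7.12, 6.93 and 7.26. Cytosolic ribosomal protein genes had 0 rises and 2 falls in 74. Those were rpl22l1, from 11.46, 11.25, 11.49 and 11.43 to 10.60, 10.51, 10.55 and 10.48 (1.83-fold), and rps9 (−0.27).

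The remaining lists cover metabolism, cell maintenance, immunity and further tissues, and their counts are to be read against the same shares over all genes. The largest share raised among them was 17.2%, on the interferon list. The shares raised on the somite, notochord and glutathione lists, among others, also lay above 5.77%. The largest share lowered was 16.7%, on the list linked to myc, runx or cohesin. Whether any of these lists differs from the shares over all genes was not tested. Of 69 respiratory chain genes 3 rose and 60 lay above 0, with a median of 0.09, and of 46 proteasome genes 3 rose, with a median of 0.10. Either count of rises was 1 without most of the single arrays of 24 hpf. With the 8 arrays of 24 hpf alone the counts were 6 and 3. Splicing factors had 5 falls in 71, or 14 without control 3 of 48 hpf, and a median of −0.07. The glutathione and oxidative stress list had 3 rises and 3 falls in 36. Among them prdx1, a peroxide scavenger, read 8.12, 8.11, 8.03 and 8.07 in controls and 8.84, 8.87, 8.73 and 8.77 in morphants (1.65-fold). Of 43 genes of glycolysis and hypoxia 2 rose, aldocb by 0.65 and hk2 by 0.38, of 21 genes of cholesterol and fatty acid synthesis 1 fell, acat2 by 0.50, and of 33 clock genes 1 rose. The interferon list had 5 rises and 2 falls in 29, with 3 rises without any of the 24 hpf arrays but control 2 and morphant 4, and 1 fall without any but control 1. Beside isg15 the exonuclease isg20 rose 2.73-fold, while irf1b fell by 0.64 and irf1a stood at 0.01. The somite list had 3 rises and 1 fall in 25, the notochord list 2 rises in 18 and the myeloid list 1 rise and 1 fall in 34, the fall being that of lyz, lysozyme, by 0.37. The somite rises numbered 0 or 1 when any of the 8 arrays was left out, and the falls 3 without control 3 of 48 hpf and 2 without morphant 3. The notochord rises numbered 0 without morphant 2 and 4 without control 3 of 48 hpf. The single rises of the endothelial, myeloid, clock and heat shock lists and the pigment fall were each lost without at least 1 array. Of 18 genes linked to myc, runx or cohesin 2 rose and 3 fell. runx1, at low signal, stood at −0.05 and runx3 at 0.02.

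**Figure D5:**
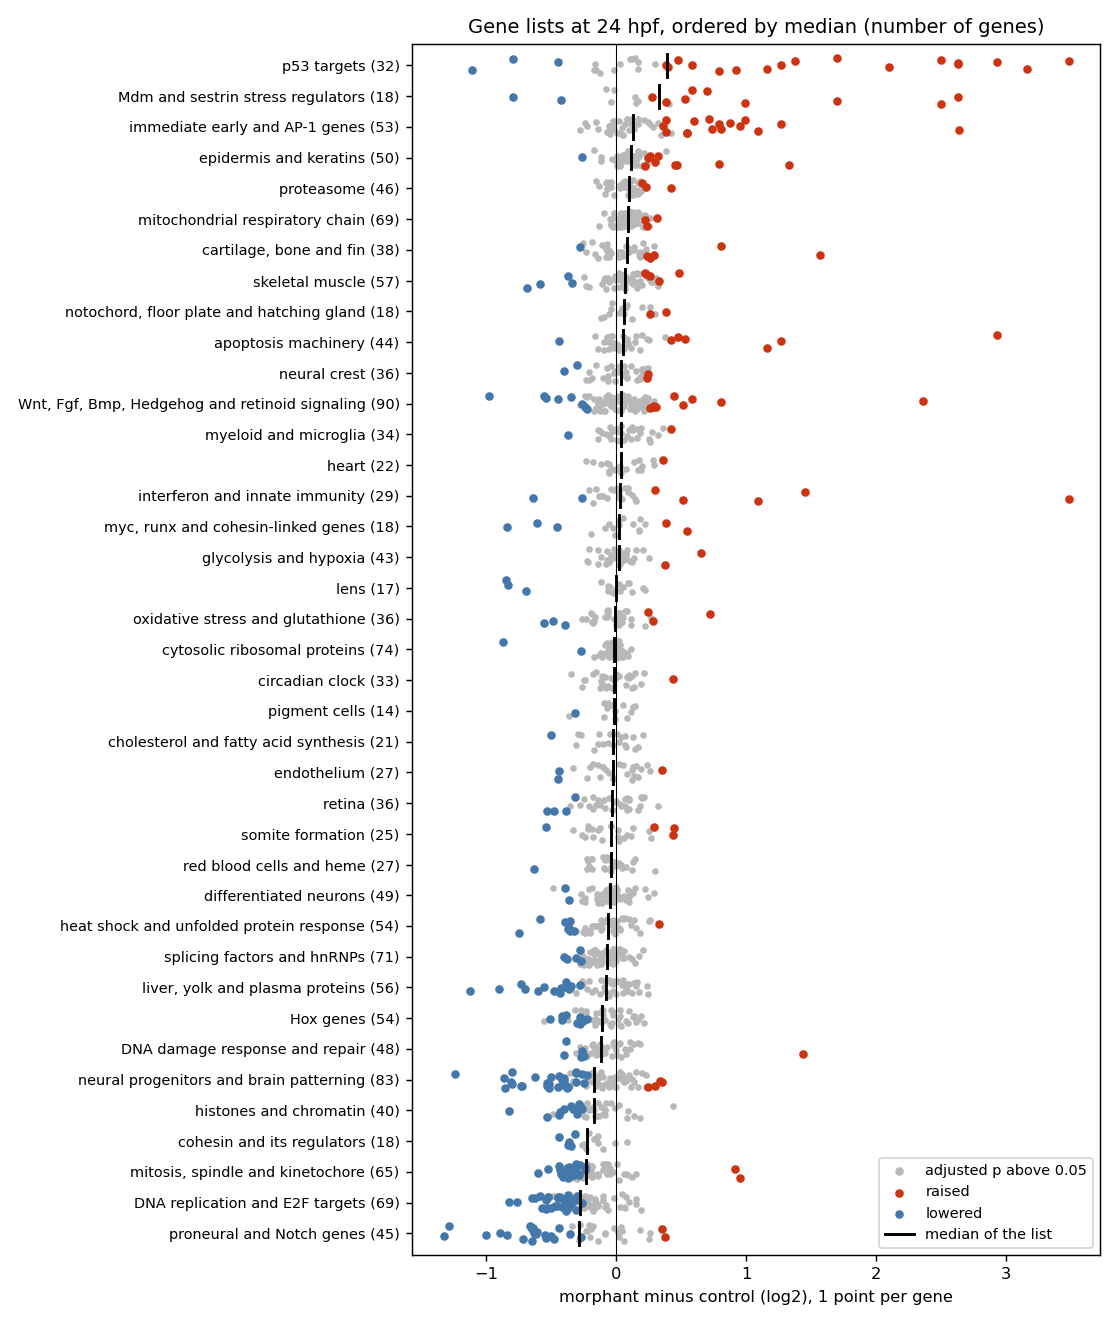
Log2 differences (morphant minus control at 24 hpf) of the measured genes of each list, with red for raised, blue for lowered and a black bar for the median of each list. The medians of the p53 (0.39), Mdm and sestrin (0.33), replication (−0.28) and proneural and Notch (−0.29) lists stand farthest from the median over all genes of 0.01.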

How the data were processed

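Gene expression was measured on Affymetrix GeneChip Zebrafish Genome Arrays. The authors normalized the arrays with RMA (background correction, quantile normalization, 1 summary per probe set) and deposited log2 values, which were used unchanged. Arrays have no counting depth, and their number limits the precision. The Affymetrix control probe sets (115 of 15617) were left out. The platform's annotation gave 1 gene symbol to 10795 probe sets, several to 135 and none to 4572, and where a gene had several, the probe set of highest mean over all arrays stood for it. Tables were made with Python 3.11.15 and pandas 2.3.3 and figures with matplotlib 3.10.9.

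All 15 arrays entered a lmFit model of 4 group means, from which morphant minus control at 24 hpf was tested with eBayes (R 4.3.3, limma 3.58.1), and p-values were adjusted over 15502 probe sets by the method of Benjamini and Hochberg. SE is that of the fitted difference. The script was tested on simulated data. Alternatives were the 8 arrays of 24 hpf alone, each array left out, array weights, cyclic loess, centring on ribosomal protein genes, brighter probe sets only, eBayes with trend and robust, averaging the probe sets of a gene, a fold of 1.5 and a replicate block. Pools of like number were treated as unpaired, since the labels do not say what a number shares.

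The genes named are esco2, genes the study names as measured, the 30 largest rises and falls, up to 6 members per list by smallest adjusted p, and members that moved against a list. Other genes named belong to the same complexes and families or were chosen after their values were seen. The members and lists were chosen with earlier results of these data known. Sequences and coordinates were not used here.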

Additional observations from a re-analysis of the deposited data

Results flagged for a closer look

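Of the 476 groups of 4 values that 238 of the named genes give, 27 (5.67%) held an array that stood apart from the other 3. Its distance to the nearest of them was a larger part of the whole range than Dixon's critical value. Chance gives about 1 in 20.

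Of these groups 17 were of controls. Control 1 stood high in isg20 (7.87, others 7.66 to 7.69), tnnc2.2 (11.90, others 11.83 to 11.84), psmc1a (10.23, others 10.12 to 10.13), cenpk (7.09, others 6.93 to 6.94), gpm6aa (8.85, others 8.67 to 8.69) and ptprna (8.62, others 8.42 to 8.45), and low in cdca5 (7.62, others 7.87 to 7.90). Control 2 stood high in bmp2b (6.88, others 6.67 to 6.69) and low in ddx56 (7.05, others 7.30 to 7.32). Control 3 stood high in rasl11b (5.28, others 5.01 to 5.04) and gbx2 (6.92, others 6.66 to 6.70), and low in ncapd3 (7.99, others 8.06 to 8.07) and atp5mf (10.87, others 10.997 to 11.02). Control 4 stood high in casp8 (4.83, others 4.49 to 4.55) and pds5b (8.86, others 8.83 to 8.84), and low in phlda2 (7.68, others 7.80 to 7.82) and unga (8.34, others 8.48 to 8.51).

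The other 10 were of morphants. Morphant 1 stood high in cat (4.59, others 4.23 to 4.30). Morphant 2 stood low in pvalb3 (6.40, others 6.59 to 6.61), fgg (8.58, others 8.78 to 8.81) and utp4 (8.53, others 8.65 to 8.66). Morphant 3 stood high in dlx3b (6.78, others 6.63 to 6.65) and low in gtpbp1l (8.22, others 8.44 to 8.48) and snrpc (9.95, others 9.98 to 9.99). Morphant 4 stood high in nck1b (9.62, others 9.46 to 9.47) and meis2b (7.41, others 7.19 to 7.22), and low in hoxa2b (6.96, others all at 7.0).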

How the results depend on the processing

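Calls were compared for a set of 238 named genes, 227 that passed the threshold and 11 that did not. Some uncalled genes named above are outside this set. Of the 227, 184 passed the threshold with the same sign under every alternative, 43 did not under at least 1 alternative, and 0 changed sign. Brighter probe sets only held 186 of these 238 genes, so for dimmer genes that alternative could not be tried. The count of changed probe sets was 75, with 74 under array weights, 57 among the brighter probe sets only and 73 to 84 with an array left out (57 to 60 raised, 14 to 25 lowered). Counted by gene it was 45, with 39 raised and 6 lowered, since 1 probe set stands for a gene and probe sets with no symbol are left out. At a fold of 1.5 it was 262, with 133 raised and 129 lowered.

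The number past the false discovery rate alone, 1514, moved most. It was 3463 with array weights, 2583 with the 8 arrays alone (1513 of them shared) and 983 without morphant 2. It lay between 983 and 1208 when any of the 8 arrays of 24 hpf was left out, and it was 2404 without control 3 of 48 hpf. The cause was not tested. The difference of esco2 was −0.28 after centring on ribosomal protein genes, where it did not pass, and −0.36 to −0.27 with an array left out. The centring moved the median of all probe sets by 0.034. Among brighter probe sets only, 19 p53 genes were left, and their median was 0.79.

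With the replicate number as a block, 75 probe sets changed and 2761 passed the false discovery rate. Deviations of same-numbered pools correlated at 0.198, 0.117, 0.0205 and 0.123, and 3 of 4 controls and 3 of 4 morphants correlated best with their own number, a hint of pairing from the data. The labels give no shared origin and the third pair does not correlate, so the reported values come without the block. With the block ctbp1 (−0.26) went from an adjusted p of 0.0865 to 0.0292, and no other gene of the 238 compared changed its call. Uncalled genes named outside that set were not compared. At low signal the arrays show only part of a change, and of the 3101 dimmest probe sets 0 changed by limma (131 stood higher and 137 lower at an unadjusted p of at most 0.05).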

Other observations

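Genes of motile cilia and of ribosome assembly stood higher in esco2 morphants at 24 hpf. Both lists were drawn up after the values had been seen and carry no test as lists. Of 68 measured genes for motile cilia (outer and inner arms, radial spokes, central pair and assembly factors) 27 rose and 0 fell, and 63 lay above 0 with a median of 0.23, against shares of 5.77% and 6.20% and a median of 0.01 over all genes. At an unadjusted p of at most 0.05 in limma, 40 stood higher and 0 lower. The median deviation was 0.18, 0.30, 0.27 and 0.23 in the 4 morphant pools. rsph1, a radial spoke protein, read 5.76, 5.80, 5.65 and 5.61 in controls and 6.28, 6.47, 6.35 and 6.40 in morphants (1.59-fold, adjusted p = 3.35e-05). spag6, of the central pair, read 5.78, 5.71, 5.53 and 5.66 in controls and 6.26, 6.35, 6.06 and 6.45 in morphants. enkur rose by 0.67, cfap52 by 0.60, daw1 by 0.59 and tekt1 by 0.54. In each of these the groups did not overlap. No member reached a fold of 2.

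Of 115 genes of ribosome biogenesis and RNA polymerase I, 37 rose and 1 fell, and 109 lay above 0 with a median of 0.21. The rises numbered 19 without control 2, 23 without morphant 2 and 24 without control 3 or morphant 1. With the 8 arrays of 24 hpf alone the rises numbered 53. Besides taf1c, rrn3, which recruits RNA polymerase I to ribosomal DNA, read 6.30, 6.07, 6.39 and 6.38 in controls and 7.36, 7.27, 7.19 and 6.98 in morphants (1.88-fold). The processome gene utp4 rose by 0.70, the helicase ddx56 by 0.64, the small nucleolar complex genes imp3 and imp4 by 0.53 and 0.49, and eif6, which keeps the large subunit apart until it is mature, by 0.47.

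The serine synthesis genes phgdh and psat1 fell. phgdh, the first enzyme of the path, read 9.52, 9.39, 9.46 and 9.36 in controls and 8.59, 8.46, 8.38 and 8.64 in morphants (1.89-fold), and psat1 fell by 0.57. Other falls were those of the hypothalamic factor otpb (−1.0), the neuronal membrane protein gpm6aa (−0.97) and ptprna of the receptor-type phosphatase family (−0.89). The nuclear receptors nr2f1a (−0.66) and nr2f1b (−0.70) also fell. These genes were chosen after their values were seen.

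Of the 75 changed probe sets, 19 have no gene symbol in the annotation, 12 raised and 7 lowered. The largest rise among them went from 3.14, 3.05, 3.37 and 3.18 to 6.43, 6.68, 6.39 and 6.31, a difference of 3.27. The largest fall of all 15502 probe sets was also of a probe set without a symbol, from 9.08, 9.05, 8.83 and 8.87 to 7.18, 6.76, 6.69 and 7.49, a difference of −1.92. Of 11 genes with several probe sets and at least 1 changed, 10 had every probe set past the false discovery rate in that direction, and the exception was her4.5.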
